A study of Rattus norvegicus with 36 samples.

Results

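Retinyl palmitate, a storage ester of vitamin A, was injected daily into the peritoneum of vitamin A deficient (VAD) male Wistar rats whose bile duct had been ligated (BDL) or who had been sham-operated, and the liver response was compared between the operations. The groups were sham with vehicle (4 rats), sham with retinyl palmitate (VITA, 4 rats), ligation with vehicle (5 rats) and ligation with retinyl palmitate (5 rats). These 18 arrays, 1 liver per rat, were chosen by their titles from the 36 of the series. Each rat of these groups, controls included, had been made deficient before surgery, and none had the sufficient diet. The labels state no age, dose or length of treatment. RNA of whole liver was measured on Illumina bead arrays as the intensity of each probe. The question was which vitamin A responses were common to both operations and which were seen after ligation. For each of 9314 genes the sham response (retinyl palmitate minus vehicle), the ligated response and the difference between them (ligated minus sham) were estimated. All values are log2 intensities or log2 differences, with the standard deviation (SD) of a group or the standard error (SE) of a difference, and adjusted p-values come from limma's two-sided moderated test, corrected over the whole set of genes and called under 0.05.

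The liver stores retinyl esters in hepatic stellate cells, which lose them and turn into matrix-secreting myofibroblasts when the liver is injured. Retinol is oxidised to retinoic acid, which binds nuclear receptors (RAR, paired with RXR) on DNA at direct repeats of a short hexamer, and Cyp26a1, itself induced by retinoic acid, breaks the acid down. Bile duct ligation blocks bile flow, retains bile acids in the liver, makes bile ducts proliferate and leads to scarring with collagen. Hepatocytes meanwhile make less of many of their own enzymes, several of which in the rat also depend on sex and growth hormone.

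Between 29.2% and 38.1% of probes were detected on an array, at a detection p under 0.01. The number of arrays limits the precision: the median SE was 0.22 for the sham response, 0.19 for the ligated response and 0.29 for their difference. The arrays lay on 3 slides, of which slide 2 held no sham vehicle array, so slides 1 and 3 alone held all 4 groups. On the second principal component (10.8% of variance) every slide 3 array lay below 0 (-31.6 to -7.8) and every other array above 0 (2.13 to 18.4). The main fit had no term for slide. The array of the ligated rat with retinyl palmitate replicate 5, on slide 3, was the lowest on that component. It also stood apart on the third component, and within its group the lowest correlation of 2 arrays was 0.9437. Hepatocyte marker genes were high in all groups, with a mean level of 13.95 to 14.40 over 13 genes on every array. Nothing in the labels says how the rats of a group were housed or dissected, so the p-values measure the spread between these animals.

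Retinyl palmitate changed many more genes after ligation than after the sham operation. In ligated rats 1582 genes were called (17.0% of those tested), 714 higher (7.67%) and 868 lower (9.32%). In sham rats 121 genes were called (1.3%), 69 higher (0.741%) and 52 lower (0.558%). The ligated response differed from the sham response in 253 genes (2.72%), being higher after ligation in 105 (1.13%) and lower in 148 (1.59%), and in 179 of the 253 the difference was at least 2-fold. The share of calls that were higher depended on scaling: with each array scaled to its median, 26 of 188 calls were higher, and with the values as normalised by the authors 119 of 402 were. All 253 genes kept the sign of their difference in both, which follows in part from their selection on these same arrays. Median scaling moved the median difference over all genes from -0.01 to -0.20. Without replicate 5 of the ligated retinyl palmitate group 230 genes differed, 1421 were called in ligated rats and 151 in sham rats. With slide as a block 460 genes differed, 212 of them higher. Without replicate 1 of the ligated vehicle group 147 genes differed, 145 of them among the 253. Without slide 2, which leaves 2 to 4 rats in each group, 41 differed.

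Of the 253 genes, 231 were called in the ligated response, and 224 of these were not called in the sham response. Another 12 were called in the sham response and not in the ligated response, and 10 in neither. Within the 231, 6 genes moved in the same direction after both operations by different amounts, and Cndp2 moved in opposite directions. Conversely, 56 genes were called after both operations in the same direction with no call for a difference, 36 raised and 20 lowered, and are termed shared. For 37 of them the 95% interval of the difference lay within a 2-fold change either way, and for the other shared genes the interval reached beyond a 2-fold change. A further 1295 genes were called after ligation with neither the sham response nor the difference called, and 46 after sham operation likewise. These 1295 and 46 genes could be assigned to neither class. The genes called in both responses numbered 63, which was 52.1% of the sham calls and 3.98% of the ligated calls. The 2 responses share no array, and across all genes they correlated with Pearson's r of 0.37 and Spearman's rho of 0.3, where genes are not independent replicates.

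**Figure D1:**
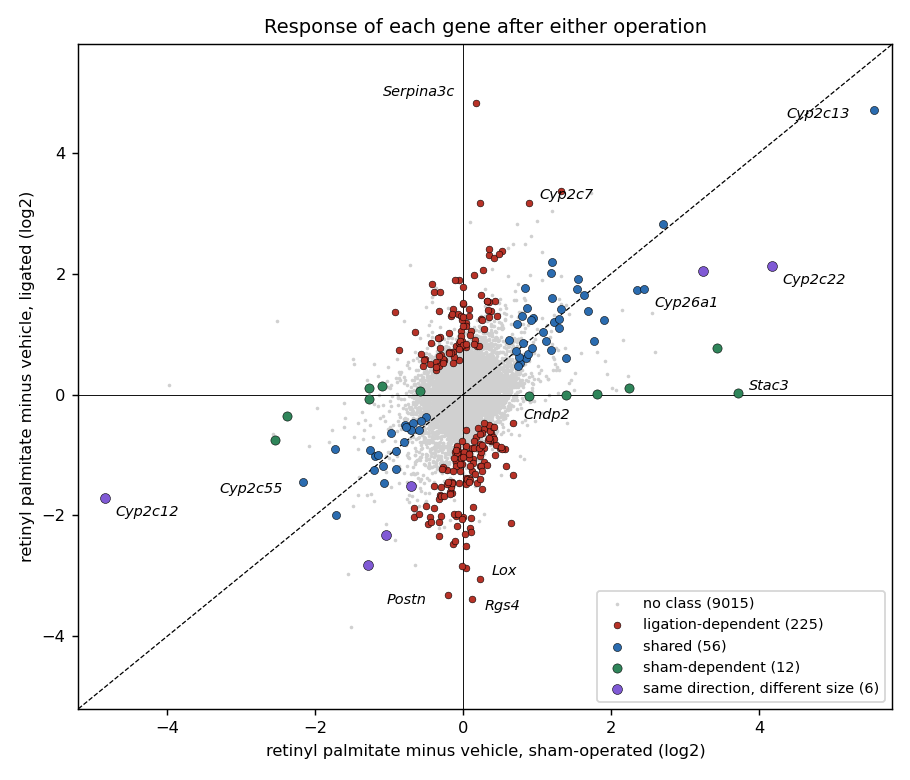
Response of each of 9314 genes to retinyl palmitate in sham-operated rats (horizontal axis, log2) and in ligated rats (vertical axis, log2), coloured by class, with the line of equal response dashed. Genes coloured as shared lie near that line, and genes coloured as ligation-dependent mostly lie nearer the vertical axis; the gene with opposite directions, Cndp2, is drawn with the ligation-dependent genes.

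The shared genes included Cyp26a1, the textbook readout of retinoic acid, though neither of its calls was stable. Cyp26a1, the hydroxylase that clears retinoic acid, was below background on all 9 vehicle arrays, at 5.24, 5.07, 5.00 and 4.66 in sham rats and at 4.65, 4.71, 5.01, 4.68 and 4.81 in ligated rats. With retinyl palmitate it stood at 7.12, 7.46, 7.94 and 7.21 in sham rats and at 8.51, 5.67, 5.60, 8.01 and 4.83 in ligated rats. The sham rats with retinyl palmitate were alike, whereas ligated replicates 1 and 4 were highest of all and replicate 5 lay among the vehicle arrays. The rise was at least 3.21-fold after sham operation (adjusted p = 0.0139) and at least 2.26-fold after ligation (adjusted p = 0.00984, detected on 3 of 5 arrays), and the difference, -0.69 ± 0.73 (SE), had an interval of -2.17 to 0.79. The ligated call was lost without ligated retinyl palmitate replicate 1 (adjusted p = 0.0528) and the sham call without sham vehicle replicate 4 (adjusted p = 0.0541). Both calls were also lost with the authors' normalised values (adjusted p = 0.078 after ligation and 0.186 after sham operation) and without slide 2, and the sham call without slide 3. Within slide 3 the ligated response was 0.08, against 2.44 within slide 1.

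The promoter of Cyp26a1 was read because its gene is the direct target of retinoic acid receptors by which the response is usually judged, and the same repeat was looked for upstream of all genes. The motif was a direct repeat of the hexamer AGGTCA or of its variants (AGTTCA, then GGGTCA, then GGTTCA), any with any, spaced by 5 or by 2 bases and read on both strands in 250 bases before to 50 after each annotated start (RefSeq, GRCr8). The repeat spaced by 5 was found in 128 of 33469 windows (0.382%) and that spaced by 2 in 57 (0.17%). Among 43 shared genes with a window (of 56), Cyp26a1 was the single holder of a repeat spaced by 5, and none of 166 ligation-dependent genes with a window (of 231) held either repeat. The 250 bases before the start of Cyp26a1, on the plus strand, hold the match in capitals, 92 to 76 bases before the start. Rarb, which encodes the receptor RAR beta and is another known target, holds its match within the 50 bases after its start on the plus strand, and the matching bases alone are shown for comparison.
Cyp26a1, chr1:244883572-244883821: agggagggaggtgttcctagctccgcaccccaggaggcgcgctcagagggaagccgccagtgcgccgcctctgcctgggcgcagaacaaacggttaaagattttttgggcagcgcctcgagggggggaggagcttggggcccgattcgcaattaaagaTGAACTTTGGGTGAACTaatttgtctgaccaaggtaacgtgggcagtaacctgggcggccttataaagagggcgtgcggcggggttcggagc
Rarb, chr15:11336416-11336432: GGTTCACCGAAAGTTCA
Rarb, despite this match, was called in neither response (0.17 ± 0.18 after sham operation, -0.40 ± 0.16 after ligation, adjusted p = 0.818 and 0.0868). Its ligated fall was called without ligated retinyl palmitate replicate 5 (adjusted p = 0.0272), without slide 3, and with the slide or the replicate number as a block. A match is a description of letters only.

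Of the 56 shared genes a cytochrome P450 rose most. Cyp2c13, a male-predominant P450 of rat liver, stood at 9.05, 10.57, 7.98 and 7.34 in sham vehicle rats and at 14.41, 14.17, 14.16 and 14.37 with retinyl palmitate. In ligated rats it was at 6.54, 7.64, 10.37, 9.20 and 9.33 with vehicle and at 12.94, 13.32, 13.25, 13.25 and 13.81 with retinyl palmitate. Treated and vehicle rats did not overlap under either operation, and vehicle rats varied far more than treated ones. The rise was 46.7-fold after sham operation (adjusted p = 3.65e-09) and 26-fold after ligation (adjusted p = 6.59e-09), with the difference at -0.84 ± 0.68. Probes for Cyp2c genes may bind RNA of related family members, which could not be separated here.

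Other shared rises were smaller. Mettl7b, a membrane methyltransferase-like protein, rose by 1.63 ± 0.26 after sham operation and 1.64 ± 0.23 after ligation, and the interval of the difference was -0.69 to 0.71. Sh3gl3, an endophilin, rose by 1.69 ± 0.22 and 1.39 ± 0.20, and Rpp21, a subunit of RNase P, by 1.90 ± 0.16 and 1.23 ± 0.14. In both genes the ligated retinyl palmitate array of replicate 5 was the lowest of its group, at 6.57 for Sh3gl3 and 10.14 for Rpp21. Sez6 rose by 1.54 ± 0.26 and 1.74 ± 0.23 from a level that ligation itself had lowered by 2.36 ± 0.25 in vehicle rats. Cyp2c6v1, another P450 of the family, rose by 1.20 ± 0.27 and 2.18 ± 0.24. Its sham call was lost without sham vehicle replicate 4 (adjusted p = 0.106), and without that array the difference was called (adjusted p = 0.0232).

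Among the shared genes were also regulators of bile acid and methyl metabolism. Nr1h4, which encodes the bile acid receptor FXR, stood at 9.34, 8.93, 8.62 and 8.44 in sham vehicle rats and at 9.90, 10.49, 9.97 and 9.80 with retinyl palmitate. After ligation its levels were 7.0, 7.45, 7.49, 7.15 and 7.72 with vehicle and 8.80, 8.32, 10.13, 8.10 and 9.42 with retinyl palmitate. Every treated rat lay above every vehicle rat of its operation, and the changes were 1.21 ± 0.29 and 1.59 ± 0.26. The sham call of Nr1h4 (adjusted p = 0.027) was lost without any of sham retinyl palmitate replicates 1 and 2 and sham vehicle replicates 3 and 4, with an adjusted p of up to 0.131. It was also lost with slide as a block, with no filter, in the VAD arrays alone and without slide 2 or slide 3. Gnmt, which uses up methyl groups of S-adenosylmethionine, rose by 1.19 ± 0.27 and 2.00 ± 0.24, and Notum, a secreted inhibitor of Wnt proteins, by 1.55 ± 0.33 and 1.92 ± 0.29. The sham call of Gnmt was lost without sham retinyl palmitate replicate 2 or sham vehicle replicates 1 or 2 (up to 0.062), and that of Notum without sham vehicle replicate 4 (adjusted p = 0.0545).

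Shared falls included the class II antigen-presenting genes. RT1-Da, the rat class II alpha chain, stood at 11.45, 11.89, 12.35 and 12.03 in sham vehicle rats and at 9.90, 11.07, 11.24 and 10.45 with retinyl palmitate. Ligated rats had 13.91, 13.98, 13.34, 13.61 and 14.02 with vehicle and 13.02, 13.05, 13.21, 12.68 and 12.33 with retinyl palmitate. The groups did not overlap under either operation, and RT1-Da fell by 1.26 ± 0.24 and by 0.91 ± 0.22. RT1-Db1 fell by 1.21 ± 0.29 and 1.25 ± 0.26 and RT1-Ba by 1.16 ± 0.27 and 1.00 ± 0.25. Of 21 antigen presentation genes 6 were lower and 1 higher after ligation and these 3 were the sham calls, and the sham calls of RT1-Db1 and RT1-Ba were lost without sham retinyl palmitate replicates 1 or 4 or sham vehicle replicate 4, that of RT1-Ba also without sham vehicle replicate 3. Without slide 3 none of the 3 sham calls remained, and those of RT1-Db1 and RT1-Ba were lost under median scaling, with the authors' normalised values and in the VAD arrays alone, that of RT1-Db1 also with no filter. The ligated call of RT1-Ba was lost without slide 3. Of all genes, 9.32% were lower after ligation and 0.558% after sham operation. Macrophage and B cell markers beside them are given with the ligated falls, and their part in this result was not tested.

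Shared falls reached other kinds of genes as well. Cyp2c55 fell by 1.45 ± 0.29 after ligation and, from 7.23 ± 0.87 (SD, n = 4) to below background on all 4 arrays, at least 3.11-fold after sham operation. Abcb4, the phospholipid exporter of the bile canaliculus, fell by 1.73 ± 0.31 after sham operation and by 0.90 ± 0.28 after ligation, where the call was lost without ligated retinyl palmitate replicates 3 or 5 or ligated vehicle replicates 4 or 5 (adjusted p up to 0.0984). Mybl1, a Myb family transcription factor, fell at least 1.89-fold after sham operation, a call lost without sham vehicle replicate 3 (adjusted p = 0.0649), and by 2.00 ± 0.34 after ligation. Anxa4, an annexin abundant in bile duct cells, fell by 0.60 ± 0.14 and 0.59 ± 0.13, and the tetraspanin gene Cd63 by 0.91 ± 0.23 and 1.23 ± 0.21. The sham calls of both were lost in 5 of 18 omissions of an array (sham retinyl palmitate replicates 1, 2 or 4 and sham vehicle replicate 4 for both, sham vehicle replicate 3 for Anxa4 and 1 for Cd63). Pmepa1, an inhibitor of TGF-beta signalling, fell by 1.08 ± 0.29 after sham operation with an adjusted p of 0.0469, a call lost in 12 of 18 omissions, and by 1.19 ± 0.25 after ligation.

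**Figure D2:**
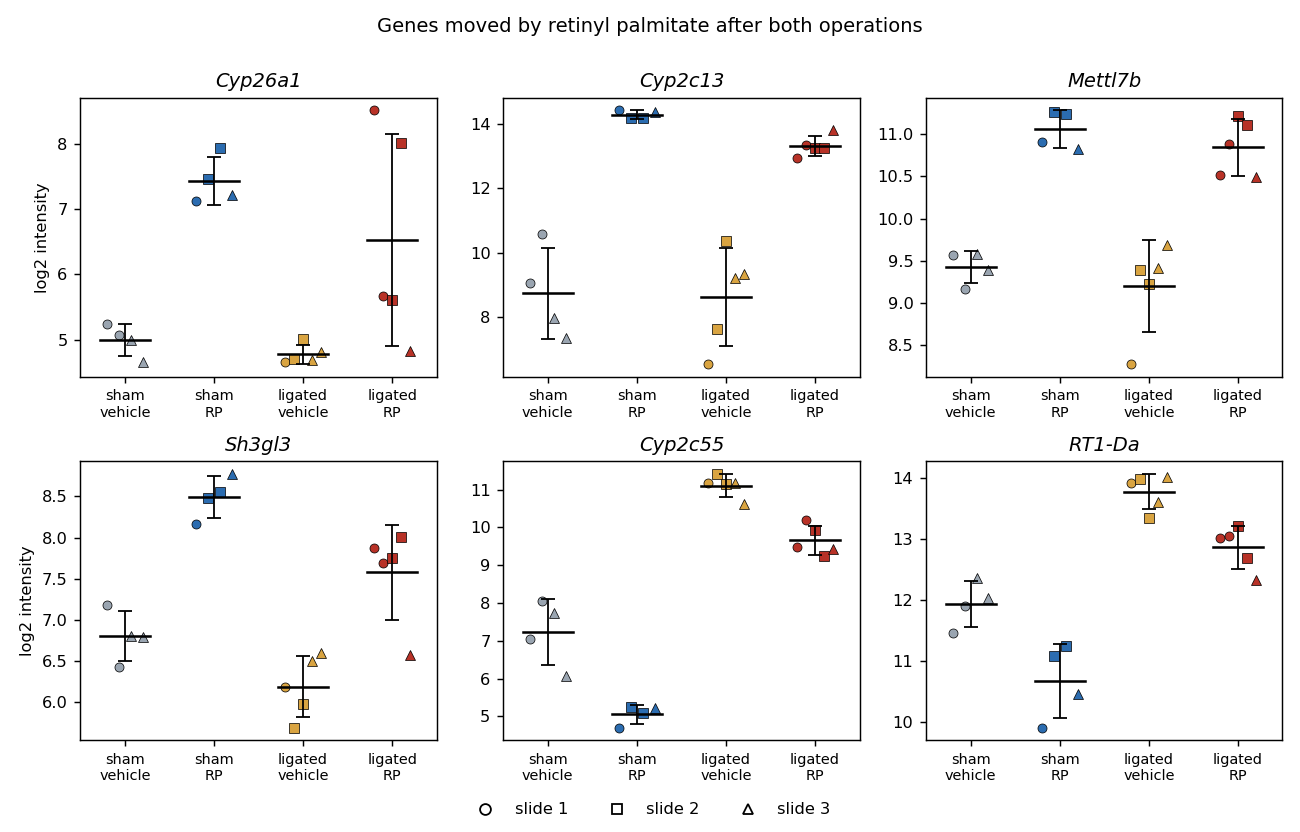
Level in every rat of 6 genes called in the same direction after both operations, as log2 intensity on the vertical axis, by group (RP, retinyl palmitate), with marker shape for the slide and bars for mean ± SD. Cyp2c13 lay above 12.9 in every treated rat, and Cyp26a1 was uneven among ligated treated rats, where it ran from 4.83 to 8.51.

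Genes lowered by retinyl palmitate after ligation with a called difference included collagen and matrix genes of scar tissue. Of 40 collagen and matrix genes tested, 29 were lower in ligated rats with retinyl palmitate and none higher, none was called in sham rats, and the difference was called in 17, all lower. Their median response was -1.19 after ligation and -0.12 after sham operation, beside medians of 0 over all genes in both. The 17 were Postn, Lum, Spp1, Col6a3, Dcn, Col6a1, Col1a1, Mgp, Col5a1, Vcan, Col4a1, Col1a2, Nid2, Col12a1, Col4a2, Bgn and Col16a1 (the share of all genes with a lower difference was 1.59%). The share of all genes lower after ligation was 9.32%. The count ran from 12 to 17 with any array left out, and was 3 without slide 2. In whole liver, fewer cells of a type and less RNA per cell cannot be told apart.

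Lum, a proteoglycan that binds collagen fibrils, was at 9.59, 7.93, 7.62, 8.47 and 8.08 in ligated vehicle rats and at 4.86, 6.81, 4.83, 4.99 and 5.82 with retinyl palmitate. Sham levels were 4.65, 4.92, 4.74 and 5.12 with vehicle and 4.75, 5.79, 4.57 and 4.47 with retinyl palmitate. Ligated vehicle rats stood above all others, and ligated rats with retinyl palmitate overlapped the sham rats. Lum fell by 2.88 ± 0.35 after ligation and was at 0.04 ± 0.39 after sham operation (difference -2.91 ± 0.52, adjusted p = 0.00113), but it was detected on 1 of the 8 sham arrays, so a sham fall could hardly be measured. It was also below background in treated ligated replicates 1, 3 and 4, so the size of the ligated fall rests in part on background levels.

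Postn, which encodes the matrix protein periostin, had the same pattern. Its levels were 8.95, 7.78, 8.94, 8.30 and 7.59 in ligated vehicle rats and 4.64, 5.84, 5.20, 4.49 and 4.83 in ligated rats with retinyl palmitate, 1 of 5 detected. All 8 sham arrays were below background, at 4.38 to 5.10. The fall was at least 6.47-fold (adjusted p = 3.25e-11) and the difference -3.10 ± 0.38 (adjusted p = 7.73e-06), or -3.81 within slide 1 and -2.53 within slide 3. Col1a1, a chain of type I collagen, was below background in all sham rats and fell by 1.98 ± 0.30 after ligation (adjusted p for the difference 0.0199), from a group in which replicate 1 was far above the rest at 8.93. It was below background in replicates 1, 3 and 5 of the treated ligated rats too, so the size of this fall rests in part on background levels. Col1a2, the other chain, was detected in every rat and fell by 1.84 ± 0.24 after ligation and by 0.51 ± 0.27 (adjusted p = 0.513) after sham operation. Its difference (-1.34 ± 0.37, adjusted p = 0.0403) lost its call in 11 of 18 omissions of an array.

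Enzymes that mature and remodel collagen moved with it. Of 34 such genes 22 were lower after ligation, 1 after sham operation (Timp1), and the difference was called in 9, all lower, among them Lox, Plat, Plod2, Loxl2, Mmp3, P4ha1, Timp1 and Timp2, beside 9.32% of all genes lower after ligation and 1.59% with a lower difference. Their median response was -0.77 after ligation and -0.11 after sham operation. Lox, the enzyme that cross-links collagen, was at 11.97, 10.91, 9.99, 11.37 and 10.89 in ligated vehicle rats and at 8.03, 8.81, 7.59, 7.78 and 7.66 with retinyl palmitate. Sham rats had 5.20, 5.40, 5.98 and 4.58 with vehicle and 6.25, 5.73, 5.26 and 4.86 with retinyl palmitate. No ligated vehicle rat overlapped a treated one, and treated ligated rats stayed above all sham rats. Lox fell 8.28-fold after ligation (adjusted p = 2e-06), against 0.23 ± 0.46 after sham operation, where it was detected on 3 of 8 arrays. The difference was -3.28 ± 0.62 (adjusted p = 0.00201), -4.49 within slide 1 and -3.05 within slide 3.

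Plod2, a collagen lysyl hydroxylase, was detected on all arrays, so that the sham response was measurable. It stood at 7.26, 7.42, 6.93 and 7.21 in sham vehicle rats and at 7.33, 7.47, 7.12 and 7.02 with retinyl palmitate. After ligation it was at 10.88, 10.43, 9.92, 10.90 and 10.51 with vehicle and at 8.13, 8.88, 7.96, 8.36 and 7.76 with retinyl palmitate. The sham groups overlapped and the ligated groups did not. Its responses were 0.03 ± 0.24 and -2.31 ± 0.21, with an interval of -0.46 to 0.52 for the sham response, and the difference was -2.34 ± 0.32 (adjusted p = 4.13e-05). Col6a3, a chain of type VI collagen likewise detected in every rat, was at 0.11 ± 0.26 after sham operation and fell by 2.04 ± 0.23 after ligation (adjusted p for the difference 0.000393).

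Plat, which encodes tissue plasminogen activator, fell by 2.13 ± 0.38 after ligation and was at 0.64 ± 0.42 after sham operation. The difference was -2.77 ± 0.57 (adjusted p = 0.00433). Timp1, an inhibitor of matrix proteases, fell after both operations, by 2.32 ± 0.24 and by 1.04 ± 0.27, and its difference (adjusted p = 0.049) lost its call in 14 of 18 omissions of an array. Its sham call (limma, adjusted p = 0.046) was lost in 9 of 18 omissions. That call was also lost under another background correction, median scaling, the authors' values, no filter and either block, in the VAD arrays alone and without slide 2 or slide 3. The elastase gene Mmp12 fell 14.4-fold after ligation (adjusted p = 2.95e-07) and was at -1.52 ± 0.52 after sham operation, with the difference not called (-2.33 ± 0.70, adjusted p = 0.062). A2m, an acute-phase protease inhibitor, was very uneven among treated ligated rats, at 9.56, 9.56, 7.75, 11.16 and 13.67, and its difference was -1.42 ± 1.32. Its ligated fall (adjusted p = 0.0157) lost its call without ligated retinyl palmitate replicate 3 (adjusted p = 0.074).

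**Figure D3:**
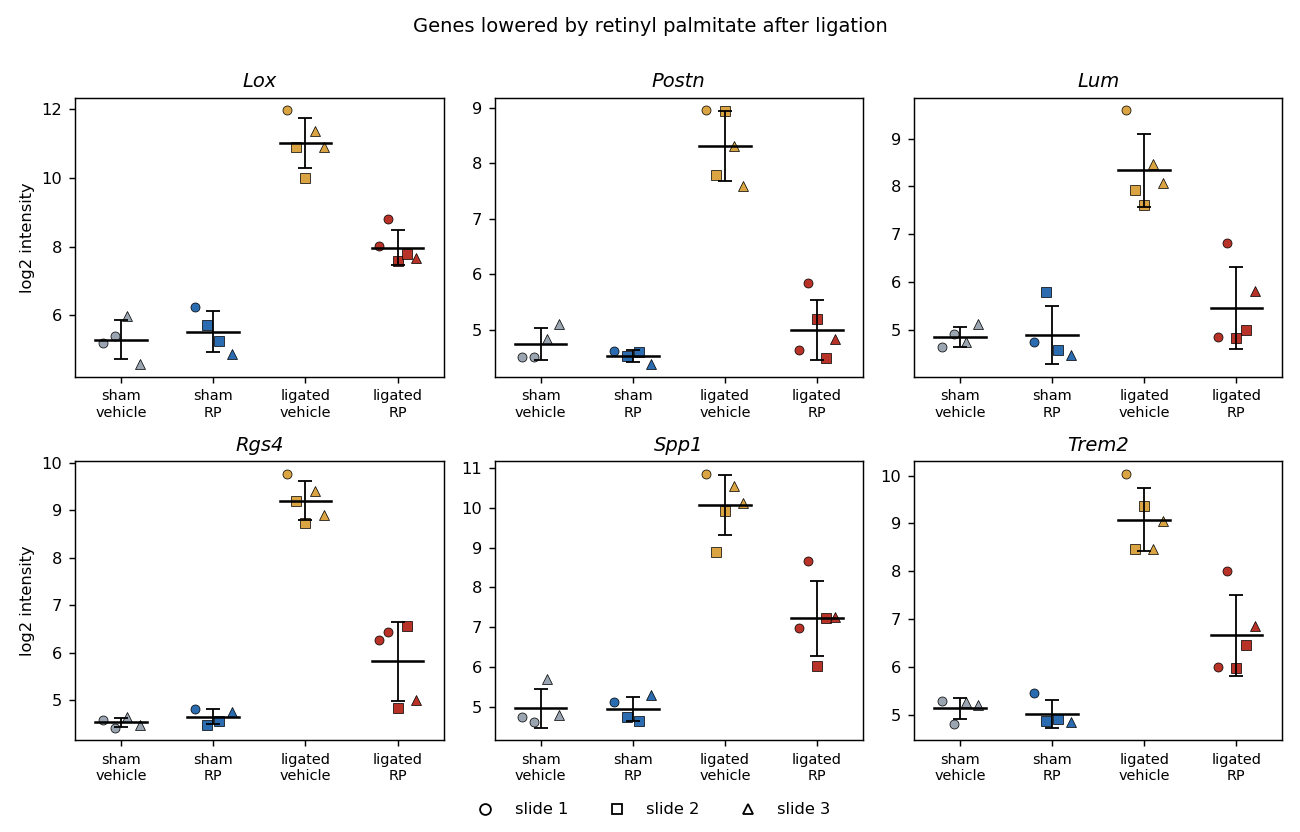
Level in every rat of 6 genes lowered by retinyl palmitate after ligation, as log2 intensity on the vertical axis, by group (RP, retinyl palmitate), with marker shape for the slide and bars for mean ± SD. In all 6 the ligated vehicle rats lay above the ligated rats with retinyl palmitate without overlap, and sham rats of both treatments had group means under 6.

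The largest single difference with a lower ligated response, after the sham-dependent Stac3, was that of Rgs4, a brake on G protein signalling found in contractile cells. Rgs4 stood at 9.76, 9.20, 8.73, 9.40 and 8.90 in ligated vehicle rats, at 6.26, 6.43, 4.84, 6.57 and 5.00 with retinyl palmitate and below background on all sham arrays. The fall was 10.4-fold after ligation, with 3 of 5 treated arrays detected (adjusted p = 4.07e-09). Cthrc1, a secreted collagen triple helix protein of scars, and Slc16a3, a lactate exporter, fell by 2.27 ± 0.25 and 2.50 ± 0.33 after ligation. In treated ligated rats Cthrc1 was below background in replicates 3, 4 and 5 and Slc16a3 in replicate 5. Both sizes thus rest in part on background levels. Dab2, an endocytic adaptor, was detected in all rats and fell by 2.10 ± 0.22 after ligation, against -0.32 ± 0.24 after sham operation (adjusted p for the difference 0.00138).

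Markers of stellate cells, macrophages and bile ducts fell beside these lists, and their part in the falls was not tested. Over all genes 9.32% were lower after ligation and 1.59% had a lower difference. Of 13 stellate cell and myofibroblast markers 7 were lower after ligation and none after sham operation. Their mean level ran from 7.75 to 8.27 in ligated vehicle rats, 6.93 to 7.23 with retinyl palmitate and 6.27 to 6.67 in sham rats. Des, the muscle filament desmin of stellate cells, fell by 2.11 ± 0.23 after ligation (difference -1.67 ± 0.34, adjusted p = 0.00402), and Vim by 1.45 ± 0.27 (difference -1.54 ± 0.41, adjusted p = 0.0329, lost in 7 of 18 omissions). Of 24 macrophage markers 17 were lower after ligation, none in sham rats, and the difference was called in 3, Trem2, Gpnmb and Cd14 (in 6 without ligated retinyl palmitate replicate 2 and in 5 without sham vehicle replicate 2). Their mean level was 9.34 to 10.15 in ligated vehicle rats, 8.47 to 8.78 with retinyl palmitate and 7.46 to 8.07 in sham rats. Of 16 bile duct markers 6 were lower after ligation, 1 of them (Anxa4) also after sham operation, and the difference was called in 2, of which Spp1 is described here. Their mean level was 8.30 to 8.68 in ligated vehicle rats, 7.74 to 8.29 with retinyl palmitate and 6.46 to 6.80 in sham rats. The 3 B and plasma cell markers tested were called in neither response.

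Individual genes of these cells showed where the fall was resolved. Trem2, a receptor of scar-associated macrophages, stood at 10.03, 8.47, 9.37, 8.47 and 9.05 in ligated vehicle rats and at 6.0, 8.01, 5.97, 6.45 and 6.85 with retinyl palmitate. It was below background on all 8 sham arrays. The ligated groups did not overlap, and the fall was 5.35-fold (adjusted p = 6.12e-06). Spp1, the matrix protein osteopontin made by bile duct cells and macrophages, fell 7.15-fold after ligation (adjusted p = 2.78e-05), from 10.07 ± 0.75 to 7.23 ± 0.95 (SD, n = 5), and was detected on 1 of 8 sham arrays. Krt19, the keratin that defines bile ducts, was raised by ligation by 3.72 ± 0.37 in vehicle rats and was not called in the ligated response (-0.59 ± 0.35, adjusted p = 0.267). Among 15 T and NK cell markers 3 were lower and 1 higher after ligation, beside 9.32% and 7.67% of all genes. Their median ligated response was 0.13. Of these markers Cd8a, of cytotoxic T cells, fell by 2.01 ± 0.32 after ligation from a group whose replicate 1 stood far above the others at 9.37. Its difference (adjusted p = 0.0209) lost its call without sham retinyl palmitate replicate 1 or sham vehicle replicate 3.

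Among chemokine and cytokine genes 15 of 40 were lower and 3 higher after ligation, none was called after sham operation, and 6 differed, all lower: Ccl7, Ccl3, Cxcr4, Cd14, Tnfsf13 and Il18. Ccl3, a macrophage chemokine, fell by 1.19 ± 0.22 and Cxcr4, the receptor of Cxcl12, by 1.38 ± 0.20 in ligated rats, both below background in all sham rats. With retinyl palmitate after ligation Ccl3 stood at 4.96, 5.79, 4.95, 5.23 and 4.97, below background except in replicate 2. Cxcr4 was below background there in at least replicates 1 and 4. Both falls are fitted values that rest in part on background levels. Ccl2, the main monocyte attractant, fell by 2.21 ± 0.36 after ligation with the difference at an adjusted p of 0.0525. The count of 6 fell to 2 without ligated vehicle replicate 1 or sham retinyl palmitate replicate 4 and to 3 without sham retinyl palmitate replicate 1 or sham vehicle replicates 2 or 3. The difference of Ccl7 (adjusted p = 0.0471) lost its call in 14 of 18 omissions and that of Cd14 (adjusted p = 0.036) in 9. TGF-beta and fibrogenic signalling genes were lower after ligation in 10 of 29 and differed in none. Beside both lists, 9.32% of all genes were lower and 7.67% higher after ligation, and 1.59% had a lower difference. Tgfb1 itself fell by 1.20 ± 0.26 after ligation and was at -0.68 ± 0.29 (adjusted p = 0.339) after sham operation.

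Whether a sham response was measurable differed between the lowered and the raised genes. Of 134 ligation-dependent genes that retinyl palmitate lowered after ligation, 49 were below background on every sham array and 55 were detected on all 8. For the 49, no sham fall could be measured. Of the 97 raised genes 90 were detected on all 8 sham arrays. The median responses of the lowered genes were -1.25 after ligation and 0.04 after sham operation, and those of the raised genes were 1.05 and -0.03. The sham interval held 0 in 120 of the 134 and in 78 of the 97. These genes were selected by called differences and ligated responses in the same values, so the medians and intervals follow in part from that selection.

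Genes raised after ligation with a called difference included hepatocyte enzymes and secreted proteins. Serpina3c, a serine protease inhibitor secreted by hepatocytes and named SERPINA3K in the array file, had the largest difference of all genes. It stood at 7.26, 7.98, 9.27, 11.40 and 9.69 in ligated vehicle rats and at 14.35, 14.41, 13.90, 13.72 and 13.32 with retinyl palmitate. Sham levels were 14.64, 14.26, 14.58 and 14.68 with vehicle and 14.91, 14.85, 14.52 and 14.59 with retinyl palmitate. Ligated vehicle rats lay far below all others and were widely spread, while sham levels were close to the highest mean of any gene over the 18 arrays (15.04), and whether this limited the sham rise was not tested. The rise was 28.2-fold after ligation (adjusted p = 1.24e-10) and 0.18 ± 0.43 after sham operation (difference 4.64 ± 0.58, adjusted p = 1.03e-05). In comparisons that share these arrays, ligation lowered Serpina3c by 5.42 ± 0.41 in vehicle rats and stood at -0.78 ± 0.41 (adjusted p = 0.177) in rats with retinyl palmitate. Within slides 1 and 3 the difference was 6.66 and 2.81.

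Amino acid breakdown was the list with most raised genes. Of 43 urea cycle and amino acid genes 22 were higher and 1 lower after ligation, 3 were higher after sham operation, and the difference was called in 9. It was higher for Gls2, Kmo, Sdsl, Prodh2, Mat1a, Ftcd, Otc and Fah and lower for Gldc. The median response was 0.71 after ligation and 0.16 after sham operation. Of all genes, 7.67% were higher after ligation, 0.741% were higher after sham operation and 1.13% had a higher difference. The 8 higher calls became 4 without ligated vehicle replicate 1 and 3 with median scaling.

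Kmo, a mitochondrial enzyme of tryptophan breakdown, stood at 7.71, 8.44, 9.02, 9.08 and 9.25 in ligated vehicle rats and at 10.71, 10.45, 10.48, 11.14 and 10.58 with retinyl palmitate. Sham levels were 10.57, 10.70, 10.97 and 10.86 with vehicle and 11.10, 10.74, 10.91 and 10.93 with retinyl palmitate. Treated ligated rats overlapped the sham rats and ligated vehicle rats did not. The rise was 1.97 ± 0.20 after ligation (adjusted p for the difference 0.000511). Gls2, the liver glutaminase, rose by 2.38 ± 0.26 after ligation and Sdsl, a serine dehydratase-like enzyme, by 1.33 ± 0.17, with sham responses of 0.52 ± 0.29 and -0.15 ± 0.19. Aspg, an asparaginase listed under LOC246266 in the file, rose by 3.17 ± 0.33 after ligation (difference 2.94 ± 0.49, adjusted p = 0.000608). Gldc, of the glycine cleavage system, fell by 1.01 ± 0.25 after ligation, and its difference (adjusted p = 0.029) lost its call in 8 of 18 omissions.

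Secreted protein and lipid genes had few called differences. Apoa2, an apolipoprotein of high-density lipoprotein, rose by 1.29 ± 0.16 after ligation against 0.08 ± 0.18 after sham operation, and was the 1 of 37 hepatocyte secreted protein genes with a called difference, beside 1.13% of all genes with a higher one. Mbl1, a mannose-binding lectin, and C8g, a chain of complement component 8, rose by 1.54 ± 0.19 and 0.69 ± 0.14 after ligation, with differences of 1.23 ± 0.28 and 0.85 ± 0.20 that were not called under median scaling or without slide 3. Rarres2, the retinoid-responsive adipokine chemerin, rose by 0.62 ± 0.10 after ligation and was at -0.12 ± 0.11 after sham operation (adjusted p for the difference 0.00306, not called under median scaling). Of 26 retinoic acid receptor and retinoid-responsive genes, 7 were higher and 5 lower after ligation (median response -0.13), beside 7.67% and 9.32% of all genes. In that list 2 were higher after sham operation. The difference was called in both directions, higher for Rarres2 and Cyp2c7 and lower for Dab2 and Cyp2c22, beside 2.72% of all genes. Fads2, a fatty acid desaturase, rose by 1.36 ± 0.38 after ligation and was at -0.93 ± 0.43 (adjusted p = 0.39) after sham operation. Its difference (adjusted p = 0.0221) lost its call without ligated vehicle replicate 1 or sham vehicle replicate 2, under median scaling and without slide 2, where the ligated rise lost its call too. Acsl1, which activates long-chain fatty acids, rose by 1.26 ± 0.18 after ligation, and its difference (adjusted p = 0.0271) lost its call in 5 omissions: ligated retinyl palmitate replicate 3, ligated vehicle replicate 1, sham retinyl palmitate replicate 4 and sham vehicle replicates 2 and 3. It was also lost under median scaling, in the VAD arrays alone and without slide 2. Scd, the stearoyl-CoA desaturase, rose by 3.04 ± 0.57 after ligation with replicate 4 at 10.53 far below the other treated rats, and its difference passed the threshold only without that array (adjusted p = 0.044). Alb, the albumin gene, was called in neither response (-0.21 ± 0.15 and -0.11 ± 0.13).

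Detoxifying enzymes rose after ligation in 20 of 46 genes, with 3 lower and none called after sham operation. The difference was called in 5, higher for Gsta2, Cyp2j3, Cyp2b3 and Cyp4f4 and lower for Cyp1b1. Over all genes 7.67% were higher and 9.32% lower after ligation, and 2.72% differed. Gsta2, a glutathione transferase, stood at 6.77, 7.33, 8.90, 7.88 and 7.36 in ligated vehicle rats and at 10.70, 10.94, 11.69, 11.28 and 10.50 with retinyl palmitate. In sham rats it was at 12.34, 11.97, 11.38 and 11.33 with vehicle and at 13.17, 13.05, 13.14 and 12.92 with retinyl palmitate, so the treated and vehicle rats did not overlap under either operation. The responses were 1.32 ± 0.36 (adjusted p = 0.0597) after sham operation and 3.37 ± 0.32 after ligation, with the difference at 2.06 ± 0.48 (adjusted p = 0.0148). The 4 higher calls became 1 without ligated vehicle replicate 1, sham retinyl palmitate replicate 2 or sham vehicle replicate 3, and also under median scaling. They became 2 without ligated retinyl palmitate replicates 3 or 4 or sham retinyl palmitate replicates 3 or 4. The difference of Cyp2b3 lost its call in 8 omissions and that of Cyp2j3 in 11. Ces1e, a carboxylesterase, rose by 1.89 ± 0.23 after ligation and was at -0.05 ± 0.26 after sham operation. Cyp1b1, a P450 of stellate and other non-parenchymal cells, fell at least 2.83-fold after ligation, with 1 of 5 treated arrays detected.

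**Figure D4:**
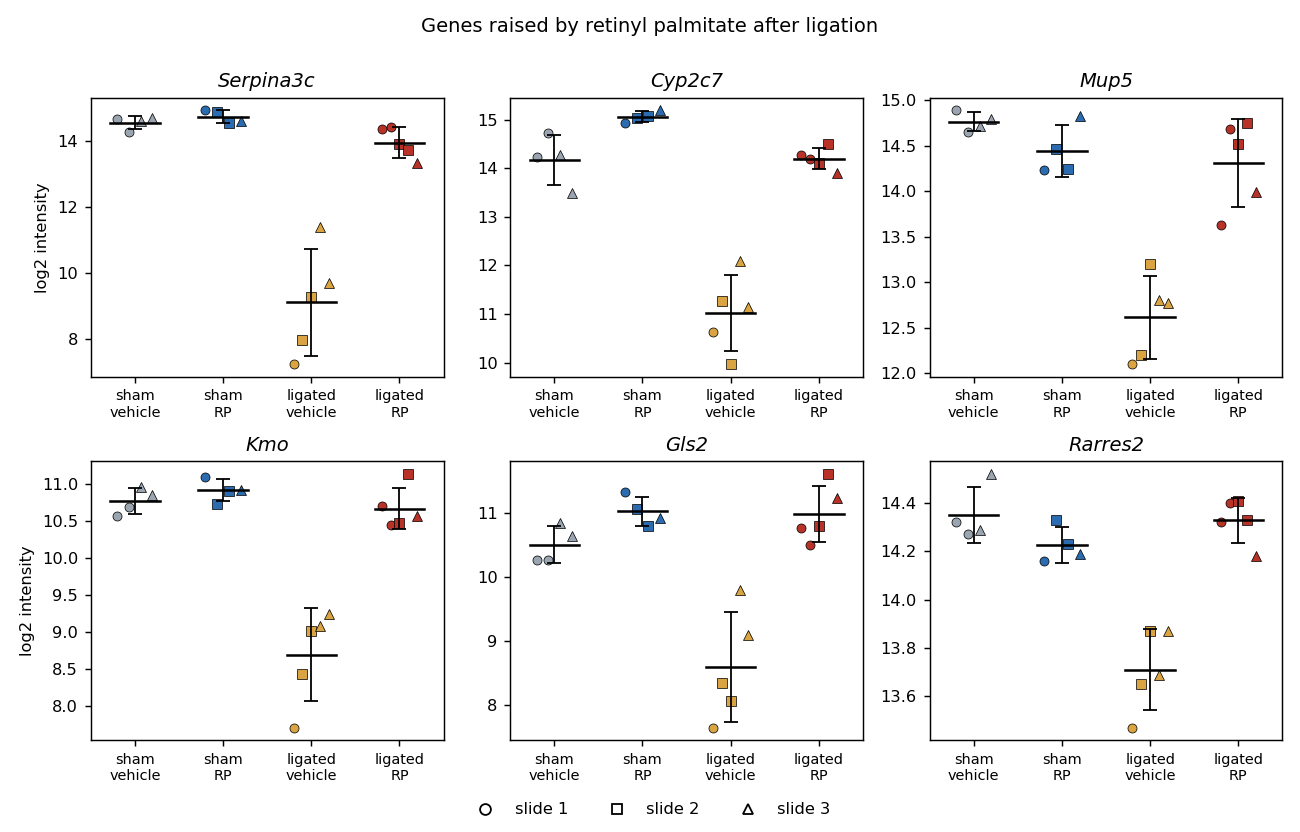
Level in every rat of 6 genes raised by retinyl palmitate after ligation, as log2 intensity on the vertical axis, by group (RP, retinyl palmitate), with marker shape for the slide and bars for mean ± SD. Ligated vehicle rats were the lowest group in each, and the treated ligated rats overlapped sham rats in each, for Serpina3c and Cyp2c7 only those with vehicle.

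Some genes of retinoid and bile acid handling had a called difference, and each list held genes that rose and genes that fell after ligation. The shares of all genes were 7.67% higher and 9.32% lower after ligation, with a difference called in 2.72%. Of 23 genes of retinoid uptake, storage and oxidation 8 were higher and 1 lower after ligation, 1 was higher and 1 lower after sham operation, and 3 differed, Adh4, Rdh5 and Ttpa, all higher. Adh4, a retinol-oxidising alcohol dehydrogenase, rose by 1.77 ± 0.34, Rdh5, a retinol dehydrogenase, by 0.68 ± 0.21, and Ttpa, the vitamin E transfer protein, by 1.13 ± 0.21 after ligation. The 3 differences (adjusted p = 0.0474, 0.0257 and 0.0471) lost their calls in 14, 6 and 12 of 18 omissions, and none of the list was called without ligated retinyl palmitate replicate 5, ligated vehicle replicate 1, sham retinyl palmitate replicates 2 or 4 or sham vehicle replicates 3 or 4, nor under median scaling. Aldh1a1, which makes retinoic acid, rose by 1.02 ± 0.27 after ligation with the difference at an adjusted p of 0.211. Of 23 bile acid synthesis genes and regulators 8 were higher and 3 lower after ligation and 1 was higher after sham operation, and of 17 bile salt and organic anion transporters 3 were higher and 2 lower after ligation, 2 were lower after sham operation and none differed. In the first of these lists the difference was called for Baat, which conjugates bile acids (0.82 ± 0.23, lost in 14 omissions), and for Ch25h (-1.40 ± 0.24), cholesterol 25-hydroxylase, which fell at least 1.65-fold after ligation to below background on all 5 arrays. Nr0b2, the bile acid-induced repressor SHP, rose by 1.76 ± 0.41 after ligation with the difference at an adjusted p of 0.0505. Slc10a1, the bile salt uptake carrier, rose by 0.91 ± 0.23 after ligation (adjusted p for the difference 0.306).

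Bile acid synthesis itself was not resolved between the operations. Cyp7a1, the rate-limiting enzyme, was called in neither response (0.23 ± 0.57 and -0.04 ± 0.51). Cyp8b1, which sets the kind of bile acid made, was at 12.50, 13.27, 11.91, 12.43 and 12.04 in ligated vehicle rats and at 6.26, 10.28, 10.03, 9.12 and 12.36 with retinyl palmitate. Treated rats were spread widely, and replicate 5 lay among the vehicle rats. The fall was 2.82 ± 0.67 (adjusted p = 0.00244), with 0.12 within slide 3, and the difference, -2.18 ± 1.00, had an interval of -4.21 to -0.15 and was not called (adjusted p = 0.28).

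Sex-dependent and growth hormone-dependent genes fell into every class. Of 32 such genes 15 were higher and 2 lower after ligation, 3 were higher and 1 lower after sham operation, and the difference was called in 6. It was higher for Cyp2c12, Cyp2c7, Mup5 and Mup4 and lower for Obp3 and Cyp2c22. Beside this list, 7.67% of all genes were higher and 9.32% lower after ligation, and 2.72% differed. With slide as a block 8 were called higher. Probes of the Cyp2c and Mup families may bind RNA of related members, which was not tested, so single members are uncertain.

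Cyp2c7, a retinoid-responsive P450, stood at 10.63, 11.27, 9.97, 12.09 and 11.15 in ligated vehicle rats and at 14.27, 14.19, 14.10, 14.49 and 13.91 with retinyl palmitate. Sham levels were 14.22, 14.72, 14.28 and 13.48 with vehicle and 14.92, 15.03, 15.08 and 15.19 with retinyl palmitate. The treated groups lay above the vehicle groups without overlap under both operations. The responses were 0.88 ± 0.25 (adjusted p = 0.0772) and 3.17 ± 0.23, with the difference at 2.29 ± 0.34 (adjusted p = 0.000144), 3.15 within slide 1 and 0.98 within slide 3. The sham level was close to the top of the scale here too, where its part in the result was not tested. Mup5 and Mup4l4, which encode major urinary proteins, rose by 1.70 ± 0.22 and 2.41 ± 0.25 after ligation. They rose from ligated vehicle levels of 12.10 to 13.20 for Mup5 and 10.08 to 11.64 for Mup4l4. The sham levels of both were also near the top, 14.44 to 15.03 on average.

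Cyp2c12, the female-predominant P450 of rat liver, moved against its male-predominant relatives. It stood at 14.24, 14.19, 13.97 and 14.07 in sham vehicle rats and at 9.66, 9.55, 8.85 and 9.07 with retinyl palmitate. In ligated rats it was at 12.74, 13.69, 14.23, 14.10 and 14.89 with vehicle and at 12.96, 12.60, 12.38, 11.69 and 11.49 with retinyl palmitate. The sham groups were far apart, and the ligated groups overlapped. It fell 28.6-fold after sham operation (adjusted p = 2.81e-11) and 3.26-fold after ligation (adjusted p = 0.000211), with the difference at 3.13 ± 0.48 (adjusted p = 0.000236). Within slide 1 the ligated response was 0.04 and within slide 3 it was -3.00.

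The retinoid-responsive P450 gene Cyp2c22 rose after both operations, by 4.17 ± 0.34 and 2.13 ± 0.30. Its difference of -2.04 ± 0.45 (adjusted p = 0.0102) rested on slide 3, being -4.09 within slide 3 and -0.13 within slide 1, and it was not called without slide 3, nor without slide 2 nor in a fit to the VAD arrays alone. The sham vehicle levels were 10.92, 11.58, 9.14 and 9.24, the last pair on slide 3. Cyp2c11, the male-specific P450 that the file lists as CYP2C, rose by 2.82 ± 0.45 after ligation, but from 6.80 ± 1.26 to 9.62 ± 0.86 (SD, n = 5) it stayed far below the sham vehicle level of 13.26 ± 0.30 (SD, n = 4). Its difference was not called (2.09 ± 0.68, adjusted p = 0.0897).

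A few genes were called after sham operation and not after ligation, which does not show that ligated rats had no response. Stac3, an adaptor protein known from muscle, stood at 6.82, 7.15, 5.42 and 8.22 in sham vehicle rats and at 10.64, 11.39, 10.43 and 10.03 with retinyl palmitate. All 10 ligated arrays were below background, at 4.49 to 4.87. It rose 13.2-fold after sham operation (adjusted p = 3.08e-06), and the difference was -3.70 ± 0.62 (adjusted p = 0.000511), -3.41 within slide 1 and -3.09 within slide 3. Because ligated rats of both treatments were below background, no ligated response of Stac3 could be measured. Obp3, a secreted carrier related to the urinary proteins, rose 10.8-fold after sham operation and was at 0.77 ± 0.43 after ligation, where vehicle rats were all below background. Its difference (adjusted p = 0.0169) lost its call without sham retinyl palmitate replicates 2 or 3 and without slide 3 or slide 2.

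Ncald, a neuronal calcium sensor, was well above background in every rat. It was at 9.71, 8.57, 9.22 and 9.41 in sham vehicle rats and at 6.91, 6.68, 6.81 and 7.01 with retinyl palmitate. Ligated rats ranged from 9.49 to 10.62 with vehicle (mean 10.06) and had 9.88, 9.47, 9.30, 10.19 and 9.66 with retinyl palmitate. The sham groups were separate and the ligated groups overlapped. It fell by 2.38 ± 0.38 after sham operation and was at -0.36 ± 0.34 after ligation (difference 2.02 ± 0.50, adjusted p = 0.021, lost without sham vehicle replicate 1 at 0.0509). Pla2g12a, a secreted phospholipase, fell by 2.54 ± 0.37, and Ltc4s, which makes leukotriene C4, rose at least 2.6-fold after sham operation. After ligation Pla2g12a was at -0.75 (limma, adjusted p = 0.13), though its ligated groups did not overlap. Every ligated array of Ltc4s was below background, at 4.51 to 5.29, so its ligated response could not be measured. Pla2g12a and Ltc4s were chosen after their values were seen. Their differences (adjusted p = 0.0456 and 0.0345) lost their calls in 13 and 9 of 18 omissions. Abcg5, a sterol exporter, and Cav2, a caveolin, fell by 2.57 ± 0.46 and 1.42 ± 0.23 after sham operation, with differences that were not called (adjusted p = 0.0817 and 0.0855).

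Cndp2, a cytosolic dipeptidase, rose by 0.67 ± 0.15 after sham operation and fell by 0.47 ± 0.14 after ligation (difference -1.14 ± 0.20, adjusted p = 0.0012). Its sham call was lost without sham retinyl palmitate replicate 4 or sham vehicle replicates 2 or 3, and its ligated call without ligated retinyl palmitate replicate 3 or ligated vehicle replicate 1. Besides Cyp2c12, Cyp2c22 and Timp1, the genes that moved in the same direction by different amounts were an unnamed locus, S100a4 and Abcg1, the last pair chosen after their values were seen. Of the 6, Cyp2c12, Cyp2c22 and the locus moved more after sham operation. S100a4, a calcium-binding protein of fibroblasts and macrophages, fell by 1.29 ± 0.32 after sham operation and 2.83 ± 0.28 after ligation. Its sham call (limma, adjusted p = 0.0278) was lost in 4 of 18 omissions. That call was also lost under another background correction, median scaling, the authors' values, no filter and slide as a block, and without slide 2 or slide 3. Abcg1, a cholesterol exporter of macrophages, fell by 0.70 ± 0.17 and 1.51 ± 0.15, and the differences of S100a4 and Abcg1 lost their calls in 11 and 12 of 18 omissions.

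**Figure D5:**
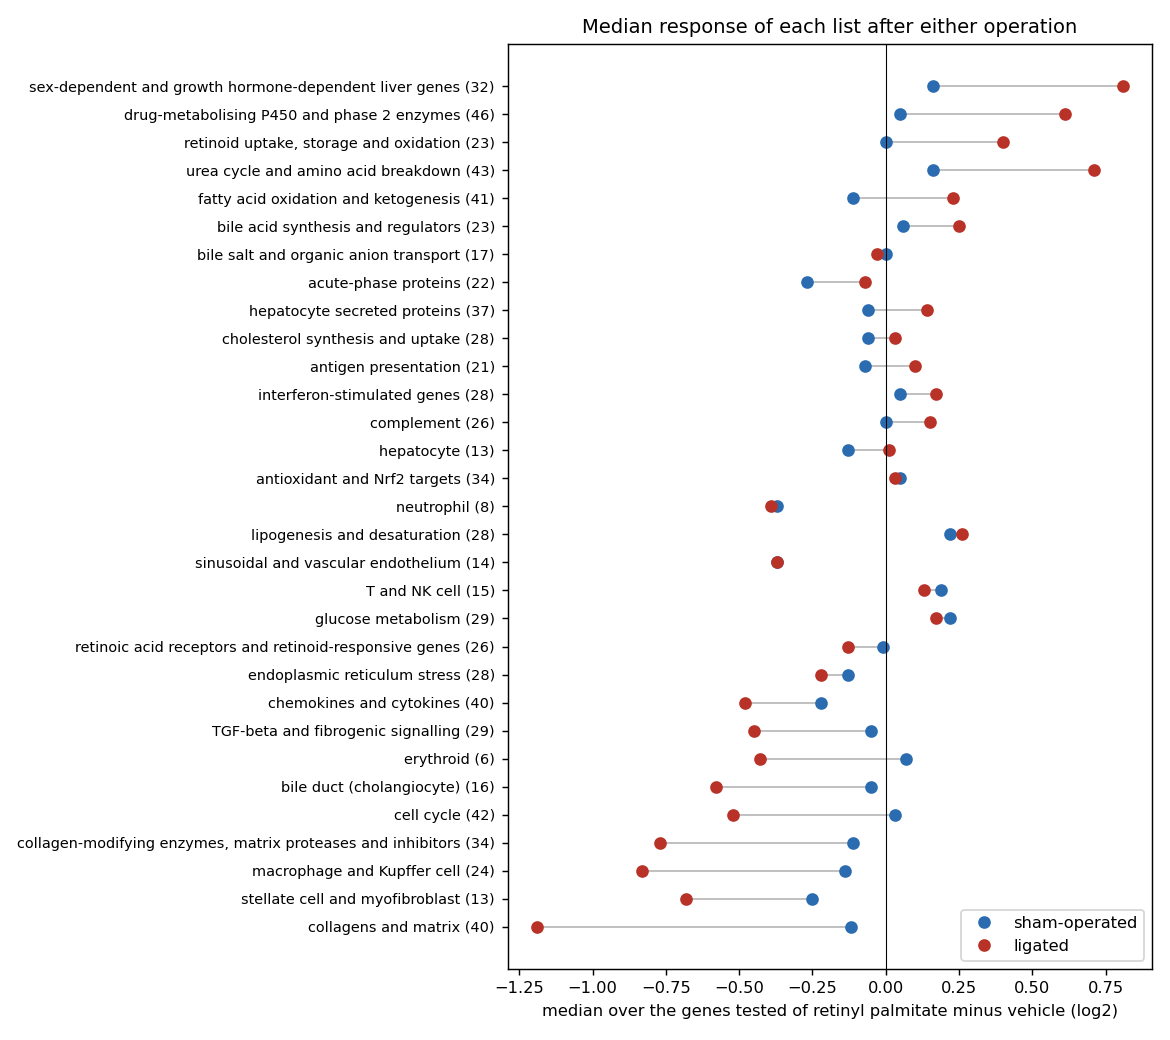
Median response to retinyl palmitate of each list with at least 5 genes tested, in sham-operated rats (blue) and ligated rats (red), as a log2 difference on the horizontal axis; numbers in brackets are genes tested, and lists are ordered by the median of the difference. The collagen and matrix list lies lowest after ligation, at -1.19 against -0.12 after sham operation, and the sex-dependent and growth hormone-dependent list highest, at 0.81 against 0.16.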

How the data were processed

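Per the labels' protocols, liver RNA was extracted with TriReagent, quality checked and biotin-labelled for Illumina arrays, 1 per rat. The authors deposited, per the file headers, a mean bead intensity for each of 22523 probes and a detection p-value, and a second table of normalised intensity whose scale and centring stay unknown, as does its method (not given in the sources used here); it kept each array's rank order and had a median near 212 on every array.

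From the intensities, neqc of limma 3.58.1 (R 4.3.3, offset 16) subtracted background and equalised the arrays' quantiles. Probes with a detection p under 0.01 on at least 4 of 36 arrays were kept (9545), and the highest-mean probe stood for each gene. In 1 fit to all 36 arrays, 8 group means were estimated, those of sufficient rats included (28 residual degrees of freedom). Names matched a RefSeq table for 74.7% of probes and are otherwise those of the file. p-values were adjusted by Benjamini and Hochberg. Where every array of a group, or all but 1 (Postn and Cyp1b1), was below background, a called change is given as "at least" a fold against the lowest detected signal. The fall of Ccl3, detected in replicate 2 alone of the treated ligated rats, is instead a fitted value. Differences between responses of such genes are also fitted values and no bounds. No column was left unmapped.

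The 33 lists, the genes and the rule for naming them were chosen with earlier results of these data known. Named were a panel, the 12 largest called differences in each direction, the 10 largest shared responses in each direction, opposed genes and up to 4 genes per list by difference or 2 by mean response, passing over names of locus type. The rule gave 131 genes, of which the text treats part, and a few items are not reported here. Alternatives chosen after seeing the data were the omission of slide 3 and of slide 2. On simulated data with 200 of 9314 genes changed, the test found 7.46% of differences of log2 0.5, 38.8% of those of 1 and 92.4% of those of 2, with 4.17% of calls on unchanged genes. Same-numbered rats of different groups did not deviate together (r from -0.19 to 0.19), so the numbers pair no samples. Tables were made with pandas 2.3.3 in Python 3.11.15 and plots with matplotlib 3.10.9.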

Additional observations from a re-analysis of the deposited data

Results flagged for a closer look

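The response to retinyl palmitate differed between the operations in 253 genes by the test of the difference itself, and 61 of these are named in the text. The difference (log2, ligated minus sham response) was below 0 for Stac3 (-3.70), Rgs4 (-3.50), Lox (-3.28), Postn (-3.10), Lum (-2.91), Spp1 (-2.82), Plat (-2.77), Obp3 (-2.66), Slc16a3 (-2.54), Cthrc1 (-2.38) and Plod2 (-2.34). It was also below 0 for Trem2 (-2.30), Col6a3 (-2.15), Ltc4s (-2.13), Cyp2c22 (-2.04), Cd8a (-1.91), Cyp1b1 (-1.90), Col1a1 (-1.86), Dab2 (-1.78), Des (-1.67) and Ccl7 (-1.58). Further values below 0 were those of Vim (-1.54), S100a4 (-1.53), Gpnmb (-1.44), Gldc (-1.44), Gpx3 (-1.43), Ccl3 (-1.42), Cxcr4 (-1.42), Ch25h (-1.40), Cd14 (-1.39), Col1a2 (-1.34) and Timp1 (-1.28). The smallest sizes below 0 were those of Cndp2 (-1.14), Plk1 (-1.11), Pfkl (-0.88) and Abcg1 (-0.81). The difference was above 0 for Serpina3c (4.64), Cyp2c12 (3.13), Aspg (2.94), Cyp2c7 (2.29), Fads2 (2.29), Gsta2 (2.06), Mup4l4 (2.06), Mup5 (2.02), Ncald (2.02), Ces1e (1.94) and Gls2 (1.86). It was also above 0 for Kmo (1.83), Pla2g12a (1.79), Adh4 (1.78), Sdsl (1.48), Rdh5 (1.24), Mbl1 (1.23), Apoa2 (1.21), Ttpa (1.12), Cyp2j3 (1.07), Acsl1 (1.02) and Cyp2b3 (0.90). The smallest values above 0 were those of C8g (0.85), Baat (0.82) and Rarres2 (0.74).

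In 22 of 396 sets of 4 or 5 values (a gene in a group) 1 array lay apart from the others, where chance gives about 1 in 20. In ligated retinyl palmitate replicate 5, Rarb was at 9.28 (others 8.65 to 8.81), Rpp21 at 10.14, Sh3gl3 at 6.57, Cyp2j3 at 10.42 (others 11.06 to 11.25) and Abcg5 at 6.52 (others 4.94 to 5.22). In that group Timp1 was at 10.89 in replicate 2, Scd at 10.53 in replicate 4 (others 13.55 to 14.62), and Mup4l4 at 12.17 and Slc10a1 at 11.64 in replicate 1. In ligated vehicle replicate 1, Col1a1 was at 8.93 (others 7.13 to 7.5), Cd8a at 9.37 (others 7.23 to 7.71), C8g at 10.95 and Lcn2 at 14.27. In sham vehicle replicate 4, RT1-Db1 was at 9.13 (others 7.90 to 8.10), Timp1 at 8.71 and Ch25h, below background, at 5.22. In sham retinyl palmitate replicate 4, Gpx3 was at 7.94, Pfkl at 7.08, Cyp2c22 at 14.68 and Cyp8b1 at 11.87, and in replicate 1, S100a4 was at 5.69 and Trem2, below background, at 5.45.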

How the results depend on the processing

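The direction of all 253 differing genes was kept under each other background correction, scaling, block and omission of an array, but their number was not. These genes were selected on the same arrays, so the kept directions follow in part from that selection. The authors' value table gave 402 differing, 362 ligation-dependent and 23 sham-dependent genes, and slide as a block 460 and 419. A fit to the VAD arrays alone, with fewer degrees of freedom, gave 110 differing, 60 sham, 100 ligation-dependent, 7 sham-dependent, 25 shared and 8 bounded calls. Median scaling left 21 bounded genes, and no filter 37 shared and 20 bounded. Without slide 3 there were 46 sham, 6 sham-dependent, 25 shared and 9 bounded calls. Without slide 2 there were 41 differing, 723 ligated, 29 sham, 534 mean, 38 ligation-dependent, 2 sham-dependent, 12 shared and 2 bounded calls, where mean is the average of both responses (1293 genes). At an adjusted p under 0.01 the differing, ligated, sham and mean calls were 72, 936, 41 and 699, and those of at least 2-fold were 458 ligated, 73 sham and 189 mean. Of the differing genes 41.5% were higher, but 13.8% with median scaling and 29.6% with the authors' table. Of the ligated calls 45.1% were higher, 34.6% with median scaling, and of the sham calls 57.0%, 84.8% with median scaling and 70.0% in the VAD arrays alone. Median scaling moved the median sham response of all genes to 0.12.

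With 1 array left out, differing genes numbered 147 to 294, ligated calls 1269 to 1639, sham calls 67 to 151, mean calls 1098 to 1366, ligation-dependent genes 136 to 271, sham-dependent 7 to 15, shared 27 to 74 and bounded 11 to 40. Ligated vehicle replicate 1 gave the 147 and 136. Sham calls were 74 without sham retinyl palmitate replicate 1, 70 without replicate 2 and 67 without sham vehicle replicate 4, and shared genes 30, 34 and 27. Replicate 2 also gave the 7 sham-dependent genes. Bounded genes were 11, 15 and 13 without those 3 arrays, 23 without ligated vehicle replicate 5, 21 without sham retinyl palmitate replicate 4 and 20 without sham vehicle replicate 1.

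With the replicate number as a block, 299 genes differed, 1762 were called in ligated and 150 in sham rats, but same-numbered rats did not deviate together, so the numbers give no pairing. Within slides, which hold few rats, 4 called values described here changed sign: the ligated response of A2m (0.12, slide 3), Cyp8b1 (0.12, slide 3) and Cyp2c12 (0.04, slide 1) and the difference of Ltc4s (0.49, slide 1). The cause was not tested.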

Other observations

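Cell division genes were lower after ligation in 11 of 42 and higher in none, beside 9.32% of all genes lower, and 17 of the 42 were below background on every sham array. Plk1, a mitotic kinase, was the single one with a called difference, beside 1.59% of all genes with a lower one, and fell at least 1.17-fold after ligation. Gpx3, a secreted glutathione peroxidase, and Pfkl, the liver phosphofructokinase, fell by 1.68 ± 0.22 and 0.70 ± 0.13 after ligation (limma, adjusted p = 1.49e-06 and 0.000244) and were at -0.25 ± 0.25 and 0.17 ± 0.15 after sham operation.

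Some strong effects of ligation were not called as changed by retinyl palmitate. Lcn2, an iron-scavenging acute-phase protein, and Abcb1b, a drug exporter, were raised by ligation by 4.41 ± 0.71 and 5.90 ± 0.42 in vehicle rats, and their ligated responses were -0.38 ± 0.67 and -0.83 ± 0.40 (limma, adjusted p = 0.773 and 0.162). The ligated levels of Lcn2, 13.68 to 15.03, were close to the highest mean of any gene (15.04), and whether this limited its response was not tested. Fgf21, a liver hormone of fasting, fell by 1.66 ± 0.43 after ligation and was at -1.42 ± 0.49 (adjusted p = 0.184) after sham operation.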
